A study of Drosophila melanogaster and Drosophila simulans and Drosophila yakuba with 30 samples.

Results

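The Dichaete-Dam binding landscape of D. simulans embryos was described from its complete lists of binding intervals, 17833 intervals in the coordinates of the species' own genome (UCSC droSim1) and 16119 intervals in those of D. melanogaster (UCSC dm3), with no interval left out. Together these 33952 intervals were part of 197964 in the 12 lists of the series, and they came from 6 of its 30 libraries. The 6 libraries were 3 biological replicates of Dichaete-Dam and 3 of Dam alone, made from whole embryos of 0 to 16 h collected after overnight lays at 25 °C. All of these flies derived from the D. simulans strain w[501] and carried a piggyBac transgene, pBac3xP3-EGFP-Dichaete-Dam in one group and pBac3xP3-EGFP-Dam in the other, recognised by GFP in the eye. Both transgenes lay behind UAS sites and an Hsp70 promoter, and the Dichaete-Dam fusion had been cloned from a D. melanogaster line, so that it was the D. melanogaster construct that was read in D. simulans embryos. Whole embryos hold all cell types, and cells that bound a region often cannot be told apart from many cells that bound it rarely.

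Dichaete is a group B Sox protein, a transcription factor with an HMG domain that bends DNA, known in D. melanogaster for its roles in embryonic segmentation and in the developing central nervous system, where it acts beside the related protein SoxNeuro (SoxN). In DamID, the protein is fused to the Dam methylase of E. coli, which methylates the adenine of GATC sites near the places that the protein visits. Dam alone marks chromatin that is open to any protein, and the comparison of both asks where the fusion methylates beyond that background. The unit of measurement is therefore the GATC fragment, the DNA between neighbouring GATC sites, and a binding interval is a run of enriched fragments.

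In the lists, each interval had a sequence, a start, an end and a whole number of 1 or more, which rises with width and is read here as the number of enriched GATC fragments merged in the interval. The authors compared both kinds of library with DESeq2, kept the fragments in which the fusion was enriched past their threshold, and merged those lying within 100 bp of one another. The 3 replicates of each construct entered a list together, so no value below carries a spread between replicates, and the depth of each library is unknown from the lists. Confidence intervals at 95% (exact binomial for shares, from order statistics for medians) cover counting error only and treat intervals as independent, which neighbours are not.

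The own-genome intervals covered 14.3 Mb and lay on 17 sequences of the droSim1 assembly. On the main arms (2L, 2R, 3L, 3R, 4 and X) there were 15781 intervals, 144 per Mb, which covered 11.6% of their length. Since no genome of this build was used, the length of a sequence was taken as the end of its last interval. Dichaete binding was thus spread over every arm. Right arm 2R was the densest of the 5 large arms with 2988 intervals (153 per Mb), followed by 3L with 3393 (151 per Mb), 3R with 4003 (145 per Mb), 2L with 3011 (137 per Mb) and X with 2221 (130 per Mb). The intervals covered 12.8% of 2R, 12.0% of 3L, 11.4% of X, 11.3% of 3R and 10.3% of 2L, so X, last by density, was not last by the share of its length covered. Its intervals were the widest of the large arms on average, with a mean of 872 bp compared with 756 bp on 2L.

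The small chromosome 4, which is largely heterochromatic yet rich in genes, carried 165 intervals over 0.945 Mb. Its 175 per Mb exceeded every large arm, with no counting error computed for density. In the translated list described below, its 121 per Mb was instead lower than the 124 to 143 per Mb of the large arms. In the own genome, its intervals were narrower (median 497 bp, 95% interval 441 to 583) and held fewer fragments (mean 2.41) than those of any large arm. For the large arms, the median was between 529 and 558 bp and the mean fragment number between 3.00 and 3.31. A share of 39.4% (31.9 to 47.3) of the intervals on 4 consisted of a single fragment, compared with 32.8% to 35.1% on the large arms. The 95% intervals for the median width and for this share include the values of all large arms, so both differences lie within counting error. In the SoxN list of the same species, which rests on the same Dam-only libraries, 4 carried 204 intervals with a median width of 644.5 bp. There the median was above the 608 to 627 bp of the large arms, while the mean fragment number (3.07) was again below theirs (3.54 to 3.72).

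Outside the main arms lay 2052 intervals, 11.5% of the list (11.0 to 12.0). Most of them were on sequences assigned to an arm but not placed in it, with 638 on X_random, 259 on 2R_random, 125 on 3R_random, 103 on 3L_random and 101 on 2L_random. Density on these was 86.6 to 113 per Mb, lower than on any main arm. The short sequences 4_random (27 intervals) and Xh_random (17 intervals) were the densest of the assembly at 202 and 203 per Mb. By contrast, the sequences 2h_random, 3h_random and U, which collect heterochromatic and unplaced DNA, were sparse, at 42.5, 52.8 and 36.0 intervals per Mb. These 3 sequences together held 779 intervals at 38.2 per Mb, covering 2.38% of their length, and 43.8% of their intervals (40.3 to 47.3) were single fragments. On Yh_random there were 3 intervals of 242, 272 and 443 bp (44.0 per Mb). For SoxN, the number was 1051 on U and 283 on 2h_random, compared with 569 and 135 for Dichaete.

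**Figure D1:**
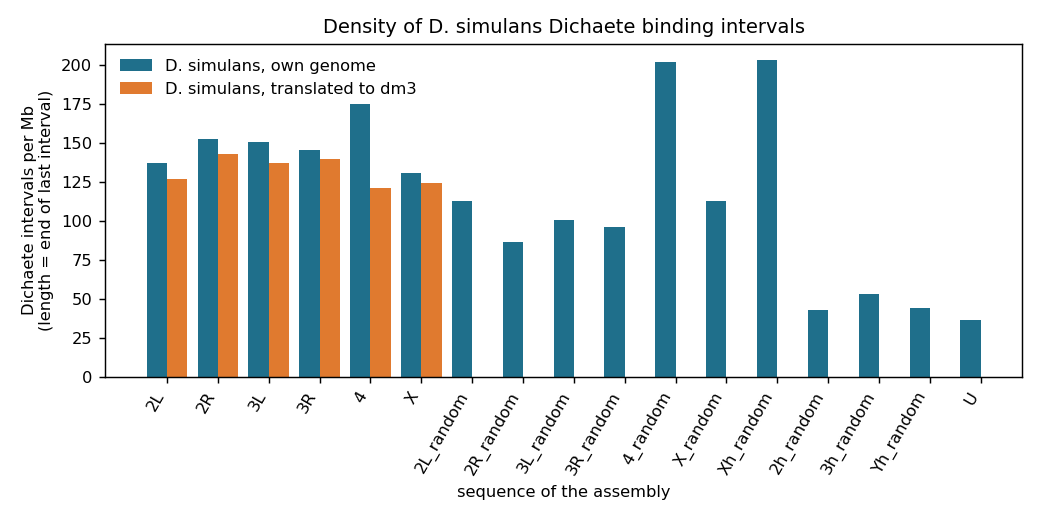
Dichaete intervals per Mb (y axis) on each of the 17 sequences of the D. simulans genome (blue) and on the 6 arms of the list translated to dm3 (orange), with the end of the last interval as the length of a sequence. The large arms sit between 130 and 153 per Mb in the own genome, U is lowest at 36.0, and every orange bar is lower than the blue bar beside it.

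Spacing between intervals was uneven. The shortest gap was 101 bp, as set by the merging distance, and the median gap over 17816 neighbouring pairs was 3022 bp (2940 to 3079). The mean gap of 7167 bp was far above the median, and the SD of 13315 bp was 1.86 times the mean. Intervals thus came in groups with long stretches between them. A share of 19.9% of the gaps was under 1 kb, while 1056 gaps of at least 25 kb held 39.3% of all gap length. On the main arms alone, the median gap was 2823 bp and 677 gaps of at least 25 kb held 31.4% of the gap length. Median gaps on the large arms ran from 2646 bp on 3L to 3124 bp on X, compared with 17966 bp on U.

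Intervals made of more fragments had nearer neighbours. The median distance to the nearer neighbour was 1828 bp for the 6199 single-fragment intervals and 1506.5 bp for the 8096 intervals of 2 to 4 fragments. It was 1294 bp for the 2863 intervals of 5 to 9 fragments and 1014 bp for the 675 intervals of 10 or more. Width itself was hardly related between neighbours, with a Spearman rho of 0.06 between an interval and the next over 17816 pairs, a description over intervals of the same libraries.

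The longest stretch of a main arm with no Dichaete interval was on 3R, from 12633617 to 12854501 in droSim1, which is 220885 bp. The next were 157318 bp on 3L (4875216 to 5032533), 153615 bp on 2L (15721942 to 15875556), 146568 bp on X (10198498 to 10345065) and 146160 bp on 2L (15469857 to 15616016). Both stretches on 2L lie within 0.5 Mb of one another, in the sparsest of 10 equal sections of that arm, which had 78.1 intervals per Mb against 127 to 177 in the other sections of 2L. In the SoxN list, the longest stretch without an interval at the place on 3R was 219246 bp, from 12632865 to 12852110, and that on 3L was 188527 bp, from 4864798 to 5053324. Within the stretches on 2L, however, the SoxN list had 6 and 7 intervals, covering 2.12% and 2.86% of the length.

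Windows of 100 kb, tiled from the start of each of the 5 large arms, show the same unevenness from the side of the clusters. The 1085 whole windows held 14.4 intervals on average, with a 10th percentile of 5 and a 90th percentile of 23. The variance of 48.5 was 3.38 times the mean. There were 7 empty windows and 274 windows with at least 20 intervals, and those 25.3% of the windows held 40.8% of the intervals. In the SoxN list the ratio of variance to mean was 2.75, with 2 empty windows and 166 of at least 20 intervals. On chromosome 4 the 9 whole windows held 17.7 intervals on average.

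The densest window was on 3L, from 16200001 to 16300000, with 35 intervals that covered 27.0% of it and merged 123 fragments. Its median interval was 552 bp wide and 11 of the intervals were single fragments, so the number came from many intervals of ordinary width rather than from broad ones. SoxN had 23 intervals in this window. Next were 2R from 11400001 to 11500000 and 3R from 5800001 to 5900000, with 33 intervals each, and 3R from 20900001 to 21000000 with 32. In the window on 3R at 5800001, SoxN also had 33 intervals, while in that at 20900001 it had 17, so dense Dichaete windows were not all dense in SoxN. The last of these had the narrowest intervals of the 10 densest windows, with a median of 368.5 bp and 19.4% of its length covered.

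Among the 10 densest windows, 6 were on 3L, 2 on 2R and 2 on 3R, but 7 windows were tied at 29 intervals, of which the 3 with most covered length were taken. The other windows on 3L began at 400001 (31 intervals), 3700001 and 11400001 (30 each), 19700001 and 17500001 (29 each), and the other on 2R at 8200001 (29 intervals). The densest windows of the remaining arms were 2L from 3500001 with 29 intervals, X from 12900001 with 28, and chromosome 4 from 200001 with 27. A window can also be rich through breadth. The window with most covered length was on 3L from 2900001 to 3000000, where 25 intervals covered 38.2% and none was a single fragment, with a median width of 1018 bp. It was followed by 3L at 400001, with 37.3% covered, and by 3L at 200001, where only 17 intervals covered 36.4%.

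**Figure D2:**
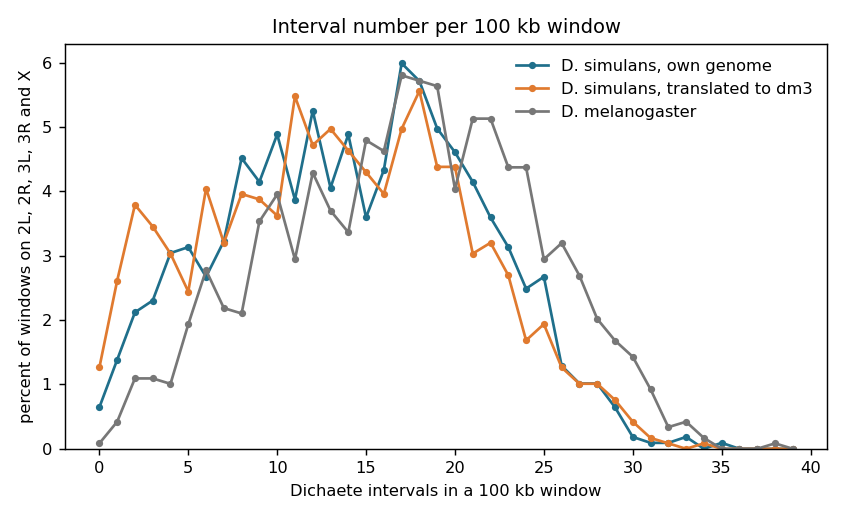
Share of 100 kb windows on 2L, 2R, 3L, 3R and X (y axis, percent) by the number of Dichaete intervals they hold (x axis), for D. simulans in its own genome (1085 windows, blue), D. simulans translated to dm3 (1187, orange) and D. melanogaster (1189, grey). The orange line is highest at the left, with 15 empty windows compared with 7 in the own genome and 1 in D. melanogaster, and the grey line reaches furthest to the right.

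Most intervals were short. The median width was 535 bp (528 to 545), the mean 804 bp and the range 4 to 9862 bp, with 5% of intervals at 151 bp or less and 5% at 2360 bp or more. At the lower end, 33 intervals were at most 10 bp wide and 8 were exactly 4 bp, the length of the GATC site itself. At the upper end, 1307 intervals of at least 2000 bp were 7.33% of the list and held 27.2% of the covered length, and 177 reached 4000 bp.

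The 17833 intervals merged 54971 fragments, 3.08 on average with a maximum of 44. A share of 34.8% (34.1 to 35.5) consisted of 1 fragment, and these held 14.5% of the covered length. Median width rose with each fragment added, from 286 bp for 1 fragment to 498 bp for 2, 702 bp for 3, 895 bp for 4 and 1104 bp for 5. It reached 1520.5 bp for 6 to 9 fragments and 2753 bp for the 675 intervals of 10 or more. The latter were 3.79% of the intervals and 14.0% of the covered length. In the D. melanogaster Dichaete list, 1997 intervals had 10 or more fragments and held 32.2% of the covered length. Intervals of at least 20 fragments numbered 40 in D. simulans and 378 in D. melanogaster. The depth behind each list is unknown, and its part in this difference was not tested.

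The widest interval of the own-genome list was on 3L, from 286545 to 296406, with 9862 bp and 44 fragments, which was also the largest fragment number. The second was on 2R from 5060205 to 5068762, 8558 bp wide with only 17 fragments. These are unlike in their GATC content, at 224 and 503 bp per fragment. The following 2 lay on X_random, from 4371180 to 4379685 (8506 bp, 20 fragments) and from 1214971 to 1223400 (8430 bp, 21 fragments), and 3 of the 10 widest intervals were on that unplaced sequence. The others were X from 5179550 to 5187302 (7753 bp), 2R from 18656897 to 18664602 (7706 bp), 2L from 10841735 to 10849337 (7603 bp), 3R from 23830680 to 23838251 (7572 bp), X_random from 31595 to 39017 (7423 bp) and 3R from 4670679 to 4678048 (7370 bp). The fragment number of these 6 ranged from 11 on 3R to 39 on 2L, so width and fragment number did not order them alike. Over all intervals, Spearman's rho between width and fragment number was 0.77.

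**Figure D3:**
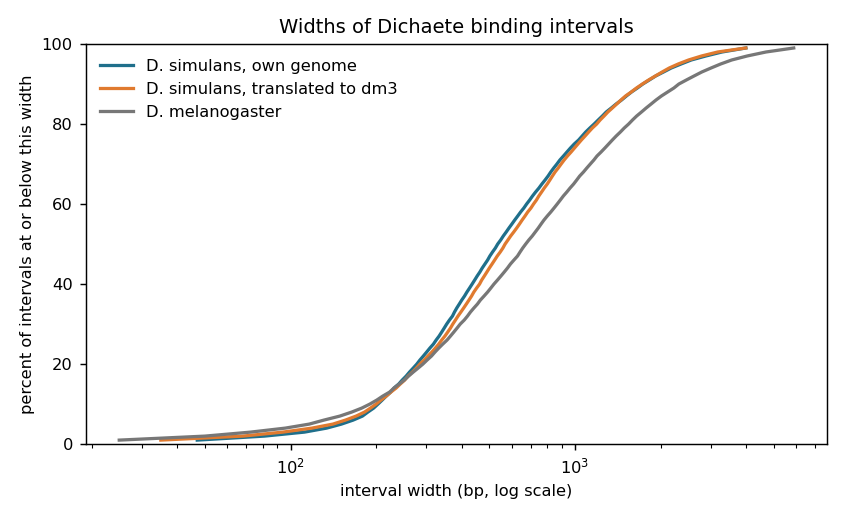
Cumulative share of intervals (y axis, percent) by width in bp (x axis, log scale), from percentile 1 to 99, for Dichaete in D. simulans in its own genome (blue) and translated to dm3 (orange) and in D. melanogaster (grey). The blue and orange lines run close together, with medians of 535 and 568 bp, and the grey line lies to their right in its upper part, with a median of 671 bp.

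To place the intervals beside those of D. melanogaster, the authors moved the mapped reads to dm3 with LiftOver, which carries coordinates through an alignment of genomes and drops what has no counterpart, and then derived intervals anew. The translated list held 16119 intervals on the 6 main arms and none elsewhere. This was 90.4% of the own-genome list, but 102% of its main-arm part, or 338 intervals more. Covered length fell from 14.3 to 13.3 Mb overall and was 105% of the 12.7 Mb on the main arms. The number of merged fragments was 51321, compared with 54971 in the whole own-genome list and 49570 on its main arms. Thus the unplaced sequences dropped out of the list and the main arms gained.

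The gain was mostly on X. The X chromosome had 2221 intervals in its own coordinates and 2786 after translation, 125% of the former. The other large arms had 96.7% (2L, 3011 to 2911), 97.1% (3R, 4003 to 3885), 99.2% (3L, 3393 to 3365) and 101% (2R, 2988 to 3019) of their own-genome number, and chromosome 4 had 92.7% (165 to 153). When the intervals of X_random and Xh_random were added to those of X, the own-genome number was 2876 and the translated number was 96.9% of it. The lists carry no names by which an interval could be followed from one genome to the other, so these are sums and not a count of intervals moved. The D. yakuba list has 37 intervals on unplaced X sequence and 4303 on U, which is assigned to no arm. Its Dichaete intervals on X numbered 3780 before and 3865 after translation, or 102%. Their covered length, however, went from 5.16 to 5.98 Mb, or 116%. For SoxN in D. simulans, with 615 intervals on unplaced X sequence, those on X numbered 2083 and 2642, or 127%, and their covered length was 120%.

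Accordingly, X took a larger share of the main-arm intervals after translation. It held 14.1% (13.5 to 14.6) in the own genome and 17.3% (16.7 to 17.9) in dm3 coordinates, beside 18.2% (17.7 to 18.7) in the D. melanogaster list. Covered length on X was 1.94 Mb before and 2.29 Mb after, and fragments numbered 7046 and 8672. The gain on X was therefore smaller by length (118%) than by number.

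Intervals became slightly wider. The median on the main arms moved from 537 to 568 bp, and it was higher after translation on every arm, by 17.5 bp on 2R to 42 bp on 3L among the large arms and by 163 bp on chromosome 4 (497 to 660 bp). The 25th and 75th percentiles also rose, from 321 to 332 bp and from 992 to 1024 bp, but the ends of the range moved otherwise. The 5th percentile of the widths fell from 155 to 141 bp and the 95th from 2360 to 2306 bp. The maximum rose from 9862 to 11616 bp. Mean fragment number rose from 3.14 to 3.18, and the share of single-fragment intervals was 34.3% before and 34.4% after. By arm, the mean fragment number rose on 2L, 2R, 3L, 3R and 4 and fell on X, from 3.17 to 3.11. Intervals of at least 20 fragments numbered 37 on the main arms of the own genome and 67 in the translated list, with maxima of 44 and 57 fragments, while those of at least 4000 bp numbered 156 and 161.

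Density per Mb was lower on every arm after translation, and the span up to the last interval was longer on every arm. It went from 175 to 121 per Mb on chromosome 4, where the last interval moved from 0.945 to 1.27 Mb, from 151 to 137 on 3L, from 137 to 127 on 2L, from 153 to 143 on 2R, from 145 to 139 on 3R and from 130 to 124 on X. The thinning was uneven along the arms and strong at the end next to the centromere, which is the last of 10 equal sections of 2L, 3L and X and the first of 2R and 3R. On 3L, this section had 48.5 intervals per Mb in the translated list and 131 in the own genome, compared with 182 in D. melanogaster. On 2R the values were 72.4, 151 and 188 per Mb, and on 2L 88.4, 132 and 218 per Mb. On 3R they were 151, 169 and 204 per Mb, so that this arm was little thinned. X was already sparse there in the own genome, with 78.1 per Mb, and had 66.0 after translation and 153 in D. melanogaster. The sections are of the span of each list and do not hold the same DNA in both genomes.

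The longest empty stretches of the translated list can be set beside the D. melanogaster Dichaete list, which shares no library with it. The longest was on 3R from 8550890 to 8788555 in dm3 (237666 bp), and D. melanogaster had 6 intervals there, covering 1.06%. On 2L from 21377668 to 21574929 (197262 bp), by contrast, D. melanogaster had 48 intervals covering 28.2%, and D. yakuba 12 covering 7.10%. The stretches on X, from 20684656 to 20900558 (215903 bp) and from 21647514 to 21847012 (199499 bp), and on 3L, from 10007468 to 10187014 (179547 bp), held 18, 10 and 11 D. melanogaster intervals covering 4.51% to 5.15%. These stretches were thus poor in Dichaete intervals in both species apart from that on 2L, which the D. melanogaster list filled. The translated SoxN list of D. simulans had 7 intervals in that stretch on 2L, covering 4.12%, so LiftOver carried D. simulans reads into part of it. How much of the rest could receive translated reads cannot be seen from the lists.

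The order of dense and sparse regions along the arm was largely kept in translation on 2L, 2R and 3L, but not along the whole of 3R. On X the order could not be settled. Intervals were counted in bins of 500 kb along both genomes, and one profile was moved against the other. Pearson's r between the profiles on 3L was 0.17 with no shift and 0.89 (45 bins) when the translated profile was read 0.55 Mb further along. On 2R it went from -0.01 to 0.81 (39 bins, 1.35 Mb) and on 2L from 0.69 to 0.85 (44 bins, 0.2 Mb). These arms thus needed 1 offset each. On 3R the best shift gave 0.59 (55 bins), and on X 0.46 (34 bins). The points of a profile share reads and libraries, and the best of many shifts is high by choice, so these are descriptions.

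Pieces of 4 Mb (16 bins of 250 kb) were then laid along the whole translated arm in either orientation. On 2L, 2R and 3L, 13 of 14 pieces matched best in the forward orientation within 2 Mb of their own place. On 3R the piece from 0 to 4 Mb matched forward with no offset (r = 0.91), and those from 16 to 20 and 20 to 24 Mb matched forward at an offset of 0.2 Mb (r = 0.71 and 0.87). The 3 pieces between them matched best when reversed, and in reversed order. The piece from 4 to 8 Mb fell on 13.5 to 17.5 Mb (r = 0.90), that from 8 to 12 Mb on 9.5 to 13.5 Mb (r = 0.97) and that from 12 to 16 Mb on 5.4 to 9.4 Mb (r = 0.91). The next best placements of these pieces gave 0.79, 0.82 and 0.79. D. melanogaster and D. simulans are known to differ by a large inversion on 3R, and the runs of dense and sparse Dichaete binding in this part of the arm appear in opposite order in both coordinate systems. On X, 0 of 4 pieces matched forward within 2 Mb, 3 matched best forward at offsets of 2.05, 5.7 and 16.2 Mb and 1 matched best when reversed. In order along X, best and next best r were 0.67 and 0.65, 0.76 and 0.72, 0.71 and 0.57, and 0.88 and 0.71. The places of the pieces from 0 to 4 and 4 to 8 Mb were thus hardly set apart. The span of X was 17.0 Mb in the own genome and 22.4 Mb after translation. The part of this in the offsets was not tested, so the order on X is not settled here.

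**Figure D4:**
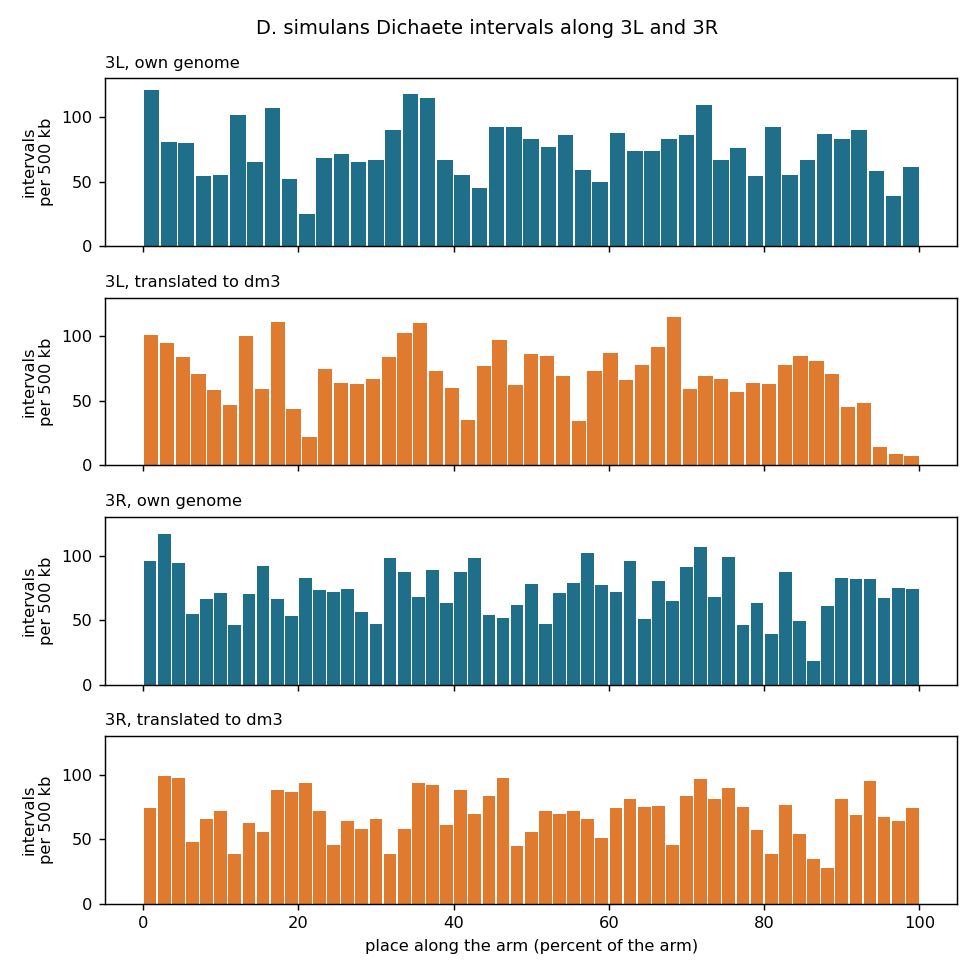
Dichaete intervals per 500 kb (y axis) along 3L and 3R (x axis, percent of the arm) in the own genome of D. simulans (blue) and translated to dm3 (orange). On 3L the peaks and troughs follow in the same order, and the orange bars fall away at the right end, where the last of 10 equal sections held 48.5 intervals per Mb. On 3R the outer parts follow in the same order and the middle part does not.

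The densest translated windows included counterparts of those of the own genome. On 3L the own-genome window at 400001, with 31 intervals and 154 fragments, had a translated window 0.3 Mb further along, at 700001, with 34 intervals and 162 fragments, the densest of the translated list. The window at 16200001, with 35 intervals and 123 fragments, had one 0.7 Mb further along, from 16900001, with 31 intervals and 154 fragments. These were less alike, with widest intervals of 3003 and 9328 bp. The window at 11400001, with 30 intervals and 89 fragments, had one 0.6 Mb further along, from 12000001, with 32 intervals and 109 fragments. Those at 17500001 and 19700001 had none among the 10 densest translated windows. Adjacent dense windows lay 0.4 and 0.5 Mb beyond the window at 3700001, which had 30 intervals and 131 fragments. They were at 4100001, with 31 intervals and 76 fragments, and at 4200001, with 30 intervals and 144 fragments. These offsets are near those of the pieces of 3L, which were 0.45 to 0.65 Mb. In the window at 700001, 30 of the 34 intervals were overlapped by a D. melanogaster Dichaete interval, and 27 D. melanogaster intervals covered 53809 bp of it compared with 37215 bp in D. simulans. Over the 10 densest translated windows, 224 of 307 intervals (73.0%) were so overlapped, beside 68.7% (68.0 to 69.4) of the whole list. The last of these was 1 of 9 windows tied at 29 intervals, taken for its covered length, and without it the share was 71.2% (198 of 278). The other windows of this set began at 27500001, 200001 and 25600001 (30 each) and 22700001 (29) on 3R, and 15300001 on 2R (30). Elsewhere, the densest windows were 2L from 2800001 (29 intervals), X from 6500001 (28) and chromosome 4 from 200001 (22).

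Overlap with D. melanogaster depended on the size of the interval. It was 68.7% over all translated intervals, counting those that shared at least 1 bp. D. melanogaster Dichaete intervals covered 18.2% of the length of the arms, which is an unlike measure. The share of intervals expected to overlap by their places alone was not computed. Of the 5550 translated intervals of a single fragment, 45.4% (44.1 to 46.7) shared at least 1 bp with a D. melanogaster Dichaete interval. The share was 67.0% for 2 fragments, 80.4% for 3, 86.3% for 4, 89.6% for 5, 94.4% for 6 to 9 and 98.7% (97.6 to 99.4) for the 699 intervals of 10 or more. All 67 intervals of at least 20 fragments were overlapped. Wider intervals have more places at which 1 bp can be shared, and the part of width was therefore read within one fragment number. Among single-fragment intervals the share was 46.6% (44.5 to 48.8) at 1 to 250 bp and 50.1% (48.1 to 52.1) at 251 to 500 bp. At 501 to 1000 bp it was 34.6% (31.5 to 37.8), the lowest of these classes. Single-fragment intervals reached 1967 bp, and those above 1000 bp were not read by class. Among intervals of 2 fragments the share was 58.1% (52.9 to 63.2), 67.7% (65.2 to 70.2) and 69.0% (66.5 to 71.3) in the same classes. For 3 fragments it was 67.7% (54.9 to 78.8), 76.1% (72.3 to 79.7) and 81.7% (79.4 to 83.9). Up to 1000 bp, the share thus rose with width among intervals of 2 or 3 fragments. Wider intervals of these fragment numbers were not read by class.

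The arms were alike in this, from 66.9% (65.4 to 68.4) on 3R to 70.3% (68.5 to 72.0) on X, with 79.1% (71.8 to 85.2) on chromosome 4, where D. melanogaster intervals were densest at 286 per Mb and covered 39.0%. Intervals in company were overlapped more often than isolated ones. The share was 72.6% (71.4 to 73.8) for those with a neighbour within 1 kb and 52.4% (48.9 to 55.9) for those with none within 10 kb. Single-fragment intervals also had the most distant neighbours, at a median of 1733.5 bp in the translated list compared with 947 bp for those of 10 or more fragments, and the part of fragment number in this difference was not tested.

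**Figure D5:**
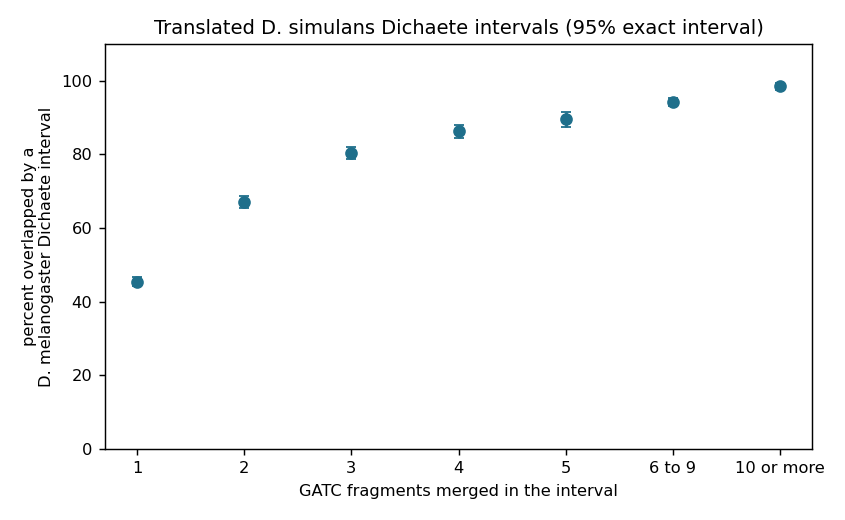
Share of translated D. simulans Dichaete intervals that share at least 1 bp with a D. melanogaster Dichaete interval (y axis, percent) by the number of GATC fragments merged (x axis), with exact 95% binomial intervals that cover counting error only. The share is 45.4% for 1 fragment and 98.7% for 10 or more.

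Where intervals of both species met, their borders often fell on the same GATC site. Of the 11075 overlapped intervals, 32.3% started and 32.8% ended at exactly the position where a D. melanogaster interval did, and 1259 (11.4%) were the same interval base for base. A further 46.8% (45.9 to 47.7) shared neither border. D. melanogaster intervals tended to reach further, since 68.8% of the overlapped D. simulans intervals lay wholly inside them. Of the 5044 intervals that were not overlapped, 916 (18.2%) abutted a D. melanogaster interval with no base between, so that the enriched fragments of both species were direct neighbours at these places. Both lists are made of GATC fragments in dm3 coordinates, so borders can meet at the same sites without shared binding. The shares expected from this alone were not computed, and these counts are descriptions.

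The widest translated intervals were mostly covered only in part in D. melanogaster. The widest was on 3R from 16966438 to 16978053 in dm3, with 11616 bp and 30 fragments. D. melanogaster intervals covered 12.0% of it and D. yakuba intervals none. The second, on 3L from 1152302 to 1163339 (11038 bp), was covered by 49.8% in D. melanogaster and had no D. yakuba interval, whereas the third, on 2R from 10776304 to 10787303 (11000 bp, 57 fragments), was covered by 28.8% in D. melanogaster and 100% in D. yakuba. Of the 10 widest, 8 were covered by less than 50% in D. melanogaster and 4 had no D. yakuba interval. For comparison, D. melanogaster intervals covered 18.2% of the arms. In the translated SoxN list of D. simulans, 7 of the 10 were covered by at least 85%, and the remaining ones by 2.97% to 18.7%. That list rests on the same Dam-only libraries as the Dichaete list, and the part of these libraries in the wide intervals was not tested.

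The other members of that set were 2R from 11006315 to 11017005 (10691 bp), 2L from 8013564 to 8024243 (10680 bp), 2L from 2099334 to 2109895 (10562 bp), 3R from 19676440 to 19686747 (10308 bp), 2R from 15601192 to 15611296 (10105 bp) and 2L from 8451654 to 8461598 (9945 bp). Last came 3L from 638314 to 648179, with 9866 bp and 45 fragments, which was covered by 100% in D. melanogaster and by 100% in D. yakuba. Its width and fragment number were close to those of the widest own-genome interval, also near the tip of 3L, with 9862 bp and 44 fragments. All 10 translated intervals were at least as wide as the widest of the own-genome list, whose second interval had 8558 bp.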

How the data were processed

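DamID-seq reads were 50 bp and single-end (HiSeq) or 150 bp (MiSeq, paired-end per the labels and single-end per the methods). According to the methods and the submitters' processing notes, the authors trimmed reads with cutadapt, mapped them with Bowtie2, extended them to 200 bp, counted them on GATC fragments (SAMtools 0.1.19, bedtools 2.21.1), tested them with DESeq2 1.6.1 (log2 fold change above 0, adjusted p below 0.05) and merged enriched fragments. Translation used LiftOver with a minMatch of 0.7, so reads without a counterpart are lost. The deposited lists hold coordinates and a fragment number, with no header, read count, fold change or p-value, and the fragment number was inferred from the values. Here intervals were described with Python 3.11.15, NumPy 2.4.6, SciPy 1.17.1 and pandas 2.3.3, and plots drawn with Matplotlib 3.10.9. Functions were tested on simulated lists (8 of 8 checks passed). An interval was counted in the window of its midpoint, and positions are 1-based. Regions named were the 10 densest windows (ties broken by covered length), 10 widest intervals and 5 longest main-arm gaps of each list and the densest window of each arm. Windows with most covered length were chosen after values were seen. Members, rules and alternatives were chosen with earlier results of these data known. Genes and sequences at intervals were not analysed here, since no annotation or genome of the lists' builds was used.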

Additional observations from a re-analysis of the deposited data

How the results depend on the processing

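Of 41 alternative values computed, 17 stayed within the counting error of the reported one (for counts and covered length, within 1.5 times of it) and 24 did not. With intervals of at least 500 bp, 9511 own-genome intervals were left, with a median gap of 5449 bp, 22 in the densest window, a median width of 946 bp and 8.38% single fragments. The translated number was then 107% of that on the main arms, with a median of 940 bp, 11.4% single fragments and 78.8% overlapped by D. melanogaster. With at least 2 fragments, the number was 11634, the median gap 4297 bp, the median width 789 bp (810 bp translated) and the overlap 80.9%. Joining gaps of up to 1000 bp gave a median gap of 4200 bp, a median width of 670.5 bp (717 bp translated) and 29.6% single fragments (29.3% translated). The median gap was 2823 bp on the main arms and 3902 bp between midpoints. Over all sequences, the translated number was 90.4% of the own-genome number. Overlap was 58.9% when at least 50% of the interval had to be shared and 60.7% against the D. melanogaster list at 0.01. Leaving out intervals below 500 bp lowers their number and raises their median width by construction. For the other changes, the cause was not tested. The densest window held 36 intervals from an offset of 50 kb and 37 when slid by 10 kb, and the share on X was between 14.0% and 14.4%.

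No paired analysis was possible because each list pools its 3 replicates, and for the same reason leaving out each replicate in turn was not run. Depth, the strength of enrichment and the spread between replicates are unknown from the lists. A fragment is missing from the translated list when its reads did not translate or when it was not enriched enough, and which of these applied is not recorded. Both D. simulans lists come from the same reads and are not independent.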
